A study of Chlorocebus sabaeus with 18 samples.

Results

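COS-7 cells carrying an expanded CGG repeat (CGG, n = 3) were compared with COS-7 cells overexpressing TRA2A (GFP_TRA, n = 3), taken by their labelled conditions as 6 of the 18 samples of the series. COS-7 is an established kidney line of the African green monkey. CGG cells had been transfected with 60 CGG repeats placed in the 5′ leader of FMR1. GFP_TRA cells are described only as overexpressing TRA2A, and their title adds the letters GFP. The other groups serve as context: the repeat with TRA2A knockdown (CGG_siTRA), TRA2A knockdown alone (siTRA) and control COS-7 cells (CTL), each n = 3. A sixth group, the repeat with TRA2A overexpression (CGG_TRA, n = 3), was not analysed here. None of the groups is named as an empty-vector, GFP-only or control-siRNA group. An effect of the repeat, an effect of raised TRA2A and an effect of the vectors can therefore not be told apart in the difference between CGG and GFP_TRA.

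Expanded CGG repeats in the FMR1 leader are transcribed in carriers of the premutation, and some carriers develop the late-onset tremor and ataxia syndrome FXTAS. The repeat RNA folds into structures that gather RNA-binding proteins in nuclear foci. TRA2A is a serine- and arginine-rich splicing regulator that binds purine-rich exonic sequence and promotes the use of nearby exons, and the series title concerns its recruitment in FXTAS.

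Summed over exon bins, the CGG libraries held 141531899 to 203957869 counts and the GFP_TRA libraries held 160745216 to 194572889. Across genes, the log2 values of library pairs within a group had r of 0.989 to 0.991, and pairs across the 2 groups had r of 0.986 to 0.989 (genes are not independent replicates). The squared difference between 2 replicates, over that of counting noise, averaged 10.9 to 73.6 per gene. A read over several bins counts in each, which raises these values. They therefore cannot decide whether replicates agreed within counting noise. Whether the replicates came from separate cultures is not given in the labels. The titles of 2 CGG_siTRA samples name a round, the first for one and the third for the other, and no title in the other groups names one. What a round was is not stated, the count columns could not be matched to these titles, and the part of rounds in the results was not tested. The p-values then speak at most to the spread among these libraries, which may be technical. The files carry human Ensembl IDs and do not pair them with gene names. The labelled cell type could therefore not be checked against marker genes, and loci are given by their position on the human assembly GRCh38, where the annotation of coding exons and untranslated regions was not used.

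Of the genes called lower in CGG, the manipulated gene had the largest log2 difference. ENSG00000164548.10 (chr7:23504780-23532041, minus strand) was read as TRA2A. Of 14969 genes or gene groups tested, it alone had a mean of 50 or more in GFP_TRA that was at least 2-fold that in CTL, with means in siTRA and CGG_siTRA at most 0.5 times those in CTL and CGG. Its identity rests on that pattern, so its level tells little about whether the labels are right. Its TMM-normalised counts (called normalised counts from here on) were 16606, 15240 and 15738 in the CGG libraries, against 196752, 177409 and 209767 in the GFP_TRA libraries. The groups did not overlap, and the 3 GFP_TRA libraries stood above the 12 other libraries. CGG lay near CTL, with 15861 ± 691 (SD, n = 3) in CGG and 16418 ± 16.8 (SD, n = 3) in CTL, and the knockdown groups averaged 4471 ± 209 in CGG_siTRA and 3908 ± 813 in siTRA (SD, n = 3 each). The log2 difference between CGG and GFP_TRA was -3.62 (SE 0.11, edgeR quasi-likelihood test, adjusted p = 5.72e-13), a level 12.3-fold lower in CGG. Because the gene was picked for its high level in GFP_TRA, that p-value is no independent support. In such bulk samples fewer cells with raised TRA2A and less TRA2A RNA per cell cannot be told apart. The gene took 0.00942% to 0.0102% of counts in the CGG libraries and 0.105% to 0.123% in the GFP_TRA libraries.

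The difference at TRA2A was carried by part of the gene. Of its 32 exon bins, 16 bins covering 1344 bases were 6.06- to 70.8-fold higher in GFP_TRA than in CGG. The other 16 bins, covering 2172 bases, had ratios of GFP_TRA to CGG between 0.503 and 1.44. Summed over these other bins, the normalised counts were 1441, 1198 and 1448 in the CGG libraries and 1409, 1344 and 1528 in the GFP_TRA libraries, so the groups overlapped. The same bins summed to 555 to 865 in CGG_siTRA and 438 to 922 in siTRA, against 1426 to 1594 in CTL.

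Within the gene, the bins that did not follow the overexpression lay at both ends and in internal blocks. Bin E002, of 465 bases near the 3′ end (chr7:23504784-23505248), had 495, 433 and 464 normalised counts in CGG and 490, 449 and 584 in GFP_TRA. The internal bin E025 (chr7:23522132-23522353) had 235, 222 and 280 in CGG and 226, 244 and 262 in GFP_TRA. By contrast, bin E018 (chr7:23512894-23513024) had 2256, 2058 and 2057 in CGG, against 34297, 30943 and 37730 in GFP_TRA. Bin E007 (chr7:23505570-23505745) was nearly unread in CGG cells, with 5.80, 10.1 and 9.57 in CGG, against 613, 580 and 614 in GFP_TRA. Bin E029 (chr7:23531789-23531980), near the 5′ end, had 1470, 1474 and 1454 in CGG, against 9063, 8456 and 9121 in GFP_TRA. In every one of these last 3 bins the libraries of the 2 groups were apart.

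Relative bin use, which sets the change of a bin against the change of its whole gene, was called (adjusted p under 0.05) in 44 of 265486 bins tested (0.0166%, edgeR diffSpliceDGE), and 14 of them were in TRA2A. Of the 28 TRA2A bins tested, 13 had higher relative use in CGG (all bins: 0.0139%) and 1 had lower relative use (all bins: 0.00264%). The single lower one was E007, with a log2 difference of -2.51 (adjusted p = 7.00e-07). As TRA2A is the gene that was manipulated, its share of called bins is no independent result. Bin E002 differed by 3.47 on the log2 scale (adjusted p = 6.98e-48), E025 by 3.61 (adjusted p = 5.81e-42) and E029 by 0.996 (adjusted p = 2.48e-07). For these p-values diffSpliceDGE pools the residual spread over all bins of a gene, and bins can share reads. Here and below, they therefore do not measure the spread among libraries at 1 bin. Bin E006 (log2 difference 0.72, adjusted p = 0.0436) was no longer called when any 1 of the 6 libraries was left out. For E029 the sign turned under limma's diffSplice on log2 values, which gave -0.36 (adjusted p = 1).

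**Figure D1:**
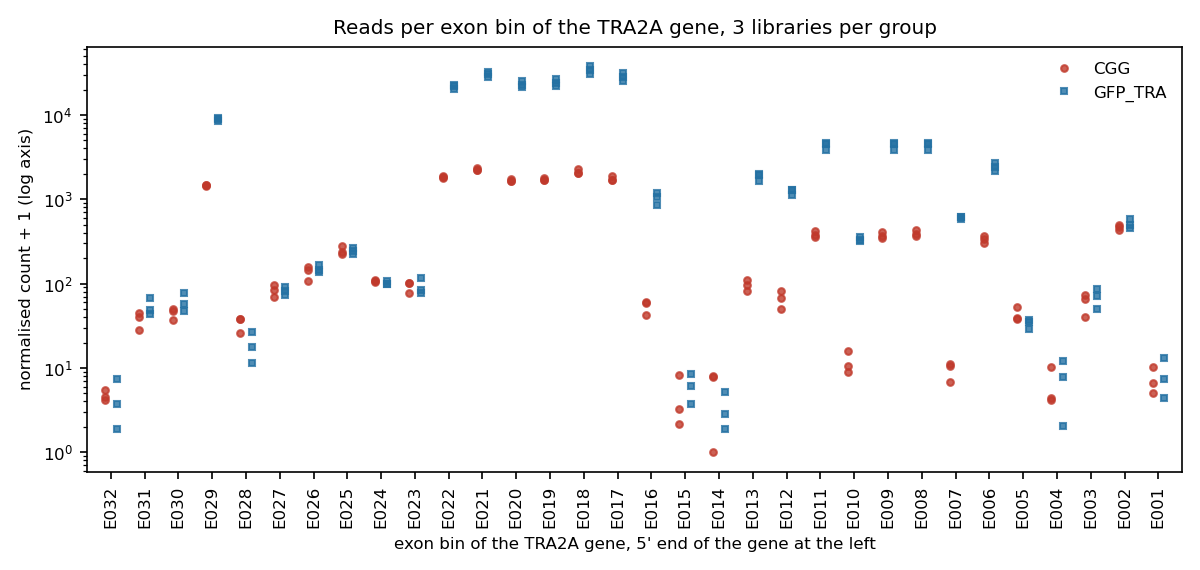
Normalised count plus 1 (log axis) of each of the 32 exon bins of the TRA2A gene, ordered from the 5′ end at the left, for the 3 CGG libraries (circles) and the 3 GFP_TRA libraries (squares). In 16 bins the GFP_TRA points lie 6.06- to 70.8-fold above the CGG points on average, and in the other 16 the points of both groups lie at similar heights.

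Beyond TRA2A, differences between CGG and GFP_TRA were many, mostly small, and unequal in direction. Of 14969 genes or gene groups tested, 1262 were called (8.43%, adjusted p under 0.05), of which 784 were higher in CGG (5.24%) and 478 lower (3.19%). The median fold of the called genes was 1.42 among those higher and 1.22 among those lower. At least 2-fold differences were nearly all in 1 direction, with 135 genes higher in CGG (0.902%) and 6 lower (0.0401%). An unadjusted p under 0.05 was reached by 3407 genes. The 3 libraries of each group did not overlap for 1257 of the 1262 called genes, and for 35.6% of all genes tested. For comparison in the same fit, CGG differed from CTL in 3622 genes and GFP_TRA from CTL in 4323, with median absolute log2 differences of 0.19 and 0.21 over all genes, against 0.14 between CGG and GFP_TRA.

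The number of calls changed with the libraries in the fit, and the split by direction changed with the scaling. Without CGG library a, b or c, 692, 640 and 622 genes were called in turn, and without GFP_TRA library a, b or c, 710, 691 and 809. In these 6 fits 464 to 564 genes were higher and 143 to 245 lower. With the authors' own scaling factors, 659 genes were called higher and 803 lower, so that 45.1% of calls were higher in CGG, against 62.1% with TMM scaling. That scaling moved the median log2 difference of all genes to -0.04, against -0.01 with TMM. The surplus of 2-fold rises held there, with 128 higher and 8 lower.

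Loci were named by a rule: a single gene, called, with a mean of at least 50 in the higher group and no overlap of libraries. Of the 683 such genes higher in CGG, ENSG00000151365.2 (chr11:78063861-78068351) had the largest log2 difference. It had 657, 741 and 786 normalised counts in CGG, against 103, 89.3 and 116 in GFP_TRA. All 3 CGG libraries stood above the 12 others, of which CGG_siTRA had 378 ± 123, siTRA 462 ± 110 and CTL 107 ± 29.8 (SD, n = 3 each). The log2 difference between CGG and GFP_TRA was 2.83 (SE 0.25, adjusted p = 1.39e-06).

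ENSG00000159167.11 (chr8:23841915-23854807, minus strand) came next, with 82.0, 111 and 120 normalised counts in CGG, against 30.9, 23.4 and 23.3 in GFP_TRA. Here the GFP_TRA libraries lay below the 12 others, and CGG_siTRA had 106 ± 14.8, siTRA 122 ± 21.01 and CTL 61.7 ± 8.04 (SD, n = 3 each). The log2 difference was 2.01 (SE 0.25, adjusted p = 6.74e-05).

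Behind these 2 loci, 8 more made up the 10 largest rises under the rule. They fell into different patterns over the 5 groups. The locus chr4:73740506-73743716 had 433, 539 and 515 normalised counts in CGG, against 137, 122 and 124 in GFP_TRA (log2 difference 1.96, adjusted p = 9.46e-07). It averaged 505 in CGG_siTRA and 742 in siTRA and 94.1 in CTL, so that GFP_TRA and CTL were the low groups. The locus chr3:157436789-157443628 was likewise low in GFP_TRA and CTL, with means of 78.6 in CGG and 21.8 in GFP_TRA, and of 77.1 in CGG_siTRA, 83.8 in siTRA and 20.6 in CTL (log2 difference 1.84, adjusted p = 0.000766).

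In other loci GFP_TRA alone was low. The locus chr1:11189341-11195981 had 741, 624 and 611 normalised counts in CGG, against 176, 176 and 196 in GFP_TRA (log2 difference 1.85, adjusted p = 5.48e-06). The 12 libraries other than GFP_TRA all stood above those 3, with a CTL mean of 838 ± 119.6 (SD, n = 3). The locus chr1:202193901-202319781 had 431, 378 and 410 in CGG, against 123, 95.3 and 131 in GFP_TRA (log2 difference 1.81, adjusted p = 2.72e-05), with a CTL mean of 364 ± 48.8 (SD, n = 3).

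The remaining 4 loci had fewer reads and means of 59.4 to 79.7 in CGG and 16.4 to 21.01 in GFP_TRA. They were chr16:75111896-75116755, chr8:2050755-2145438, chr7:101613325-101629296 and chr15:74179469-74202849, with log2 differences of 1.80 to 1.96. The chr7 locus was no longer called without GFP_TRA library b (adjusted p = 0.0689) or c (adjusted p = 0.0569), and its log2 difference ran from 1.70 to 2.37 over the 6 fits with 1 library left out. The chr15 locus read 5.62, 38.1 and 5.31 in the GFP_TRA libraries and lost its call in 5 of the 6 fits with 1 library left out, where its adjusted p ranged from 0.000805 to 0.168. It kept its call only without GFP_TRA library b, its high one, where its log2 difference was 3.42, against 1.40 to 1.92 in the other 5 fits.

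Among the loci lower in CGG, TRA2A stood first and ENSG00000156076.9 (chr12:65050626-65121566, minus strand) second among the 418 that met the rule. The chr12 locus read 1228, 1020 and 1152 normalised counts in CGG, against 3721, 4188 and 3838 in GFP_TRA. All 3 GFP_TRA libraries stood above the 12 others. CTL, at 3239 ± 125, lay nearest to GFP_TRA, and CGG_siTRA at 1268 ± 98.5 and siTRA at 1089 ± 143 lay nearest to CGG (SD, n = 3 each). The log2 difference between CGG and GFP_TRA was -1.79 (SE 0.10, adjusted p = 5.20e-09).

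The other 8 loci of the same rule on the lower side differed less, with log2 differences of -0.998 to -0.78. The locus chr1:183186238-183244900 read 3337, 3089 and 3477 normalised counts in CGG, against 5944, 5866 and 5813 in GFP_TRA (log2 difference -0.83, adjusted p = 1.13e-05). The locus chr5:136975298-137499348 read 3894, 4385 and 4490 in CGG, against 7367, 7312 and 7195 in GFP_TRA (log2 difference -0.78, adjusted p = 1.34e-05). In both, the GFP_TRA libraries stood above the 12 others. The locus chr12:93569814-93583487 read 1334, 1120 and 1164 in CGG, against 2079, 2171 and 2195 in GFP_TRA (log2 difference -0.83, adjusted p = 3.32e-06). There the CGG libraries stood below the 12 others, and CTL averaged 2557 ± 95.1 (SD, n = 3).

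The other 5, at chr22:39223359-39244751, chr4:118850688-119061245, chr8:118923557-118952200, chr7:51016213-51316818 and chr1:29119428-29123935, had means of 46.8 to 87.5 in CGG and 92.1 to 158 in GFP_TRA. Each lost its call when 1 library was left out. The chr22 locus did so without CGG library a (adjusted p = 0.0562) or GFP_TRA library b (adjusted p = 0.0527). The chr4 locus did so without CGG library b or c or GFP_TRA library a, with an adjusted p of up to 0.0923. For the loci on chr8, chr7 and chr1 this happened in 5, 4 and 5 of the 6 such fits, with adjusted p-values of up to 0.152, 0.0829 and 0.192. In all, 8 of the 10 loci on the higher side and 5 of the 10 on the lower side were called in each of the 6 fits.

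Of the 6 genes or groups called at least 2-fold lower in CGG, 2 were TRA2A and the chr12 locus above. The other 4 lay under the level needed for naming and were looked up after their values were seen. The locus chr6:93240020-93419547 averaged 5.71 ± 2.91 in CGG and 23.2 ± 7.30 in GFP_TRA (SD, n = 3 each), and the group chr5:136080471-136080597 averaged 12.5 ± 1.21 in CGG and 43.6 ± 13.03 in GFP_TRA (SD, n = 3 each). The last 2 were groups of overlapping mitochondrial genes, with means of 0.757 and 1.82 in CGG and 8.46 and 11.8 in GFP_TRA. Both mitochondrial groups also averaged 8.72 and 10.7 in CGG_siTRA and 8.26 and 13.2 in siTRA, against 0.295 and 1.62 in CTL.

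**Figure D2:**
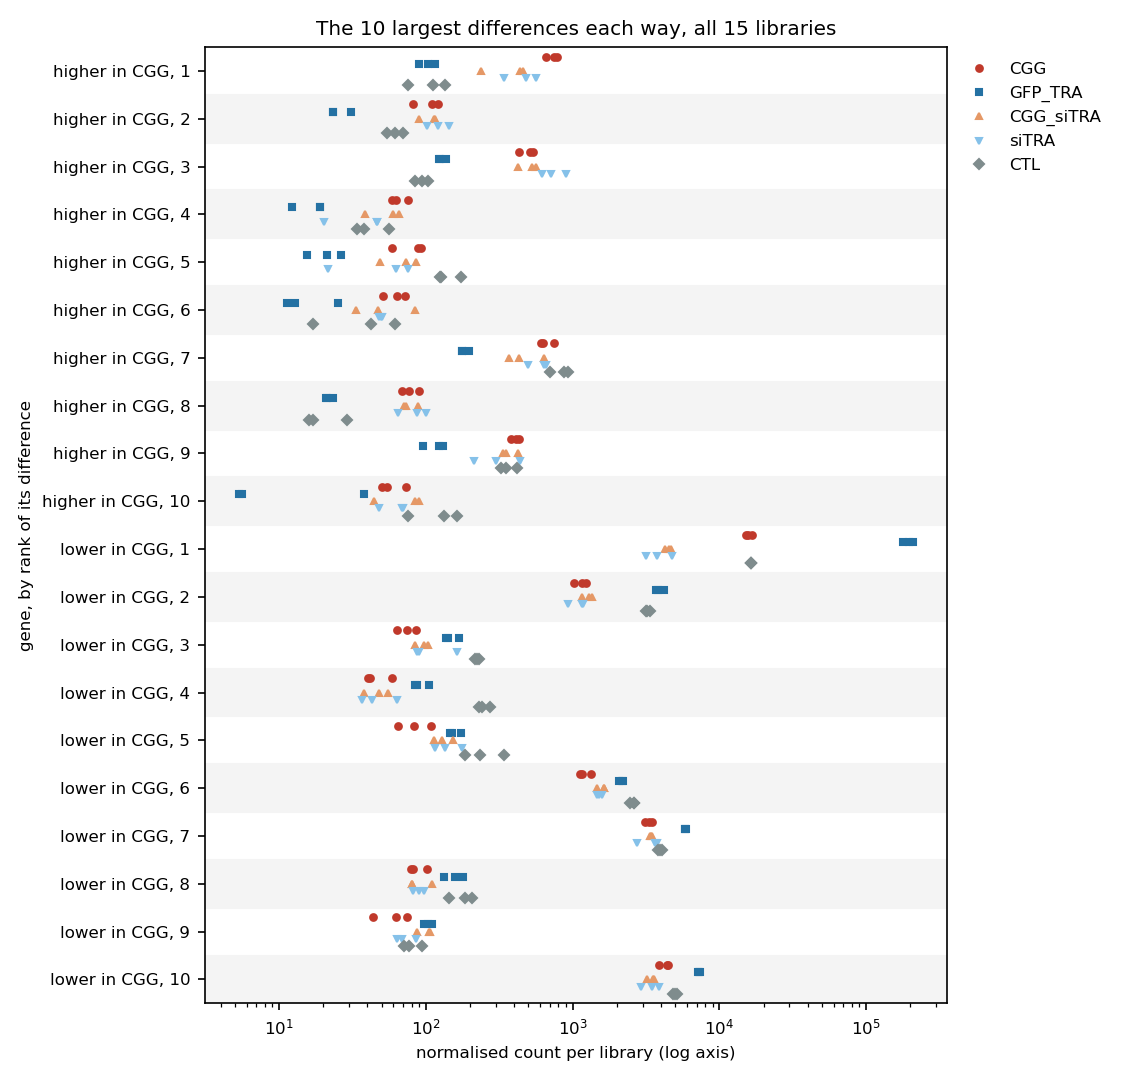
Normalised counts (log axis) of the 10 loci with the largest rise and the 10 with the largest fall in CGG relative to GFP_TRA under the naming rule, for each of the 15 libraries (CGG circles, GFP_TRA squares, CGG_siTRA upward triangles, siTRA downward triangles, CTL diamonds). Row 1 of the lower side is TRA2A, and in 5 of the 10 higher rows the GFP_TRA squares lie below all other symbols.

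The knockdown groups lay closer to CGG than to GFP_TRA at most called genes. Of the 784 genes higher in CGG, the mean of CGG_siTRA was nearer to CGG than to GFP_TRA on the log2 scale for 672 (85.7%) and that of siTRA for 670 (85.5%). Over all genes tested the shares were 63.0% and 61.5%. Of the 478 genes lower in CGG, CGG_siTRA was nearer to CGG for 396 (82.8%) and siTRA for 393 (82.2%). CTL was nearer to CGG for 430 of the 784 (54.8%) and for 251 of the 478 (52.5%), against 53.4% of all genes. These shares describe the groups and carry no test, because the called genes were chosen on the CGG and GFP_TRA means themselves.

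Counted by library, GFP_TRA was more often the group that stood apart. All 3 GFP_TRA libraries lay below the 12 others for 356 of the 784 genes higher in CGG (all genes: 4.12%) and above them for 211 of the 478 lower in CGG (all genes: 4.8%). All 3 CGG libraries lay above the 12 others for 61 of the 784 (all genes: 1.14%) and below them for 37 of the 478 (all genes: 0.995%). The calls chose genes in which these 2 groups are apart, so shares above those of all genes follow in part from that choice. The counts of the 2 groups are also not on equal terms. The 12 libraries set beside CGG include the 3 of CGG_siTRA, which carry the same repeat. No group with counts shares the raised TRA2A of GFP_TRA. How far this accounts for the unequal counts was not tested.

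An example of each kind was picked after the values were seen. The locus chr11:111908565-111923722 had 16753, 15915 and 14807 normalised counts in CGG, against 4986, 5066 and 5012 in GFP_TRA. It averaged 11200 ± 1052 in CGG_siTRA, 12639 ± 2931 in siTRA and 15810 ± 1263 in CTL (SD, n = 3 each), and its log2 difference between CGG and GFP_TRA was 1.66 (SE 0.12, adjusted p = 3.55e-07). The locus chr6:159669057-159762332 was instead highest in CGG, with 23990, 24835 and 25226 normalised counts in CGG, against 15740, 14538 and 17008 in GFP_TRA. It averaged 16614 in CGG_siTRA, 19478 in siTRA and 13012 in CTL (log2 difference 0.65, SE 0.06, adjusted p = 3.18e-06).

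The direction of the difference varied with the level of a gene. Genes were split by their mean over the 15 libraries into 5 parts of near-equal number. In the lowest part, 75 genes were called higher in CGG and 5 lower, and the median log2 difference was 0.21. In the second the calls were 275 higher and 36 lower, with a median of 0.07. Of the 135 genes at least 2-fold higher in CGG, 69 lay in the lowest part and 55 in the second. In the highest part the order was turned, with 105 higher, 226 lower and a median of -0.06. The median over all 14969 genes was -0.01.

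The same tilt was present in every GFP_TRA library. Summed over the lowest part, the CGG libraries reached 99.1% to 102% of the mean of all 15 libraries, against 85.1% to 88.2% in GFP_TRA. Summed over the highest part, they reached 99.6% to 101%, against 104% to 106% in GFP_TRA. The lowest part held 0.0540% to 0.0558% of all counts in the CGG libraries and 0.0444% to 0.0466% in the GFP_TRA libraries. The part of this tilt in the called genes was not tested.

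**Figure D3:**
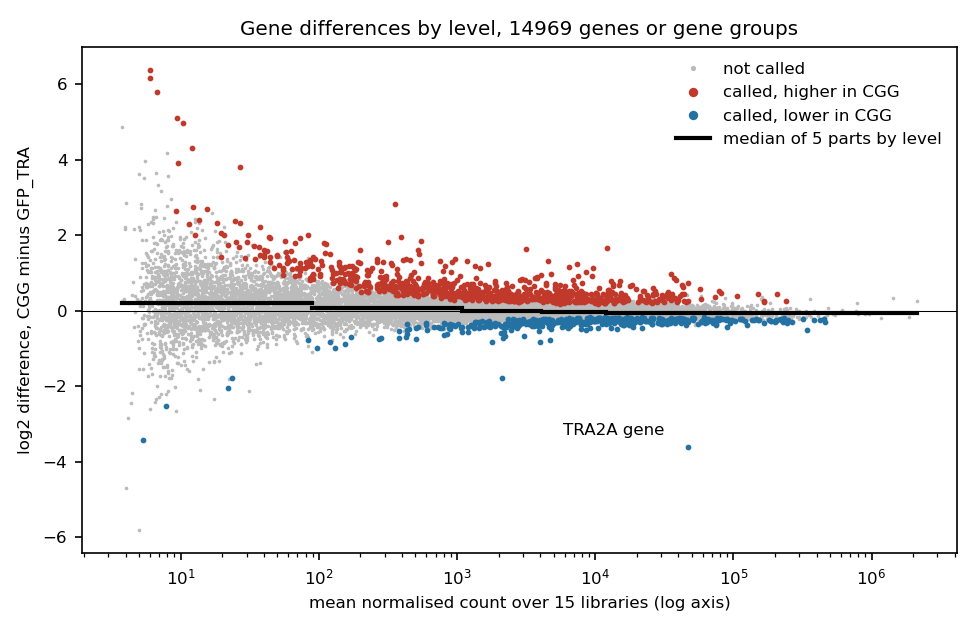
Log2 difference, CGG minus GFP_TRA, of 14969 genes or gene groups against their mean normalised count over 15 libraries (log axis), with called genes in colour and the median of each of 5 parts by level as a bar. The bars run from 0.21 in the lowest part to -0.06 in the highest, and TRA2A, at -3.62, is the lowest called gene.

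By position, the genes placed on human chromosome Y stood out for their share of calls, and those on chromosome 3 for their number of rises. Gene order on monkey chromosomes differs from that on human ones, so these are positions of the human genes that the reads matched. Chromosomes and windows were looked at after the values were seen. Of 12 chromosome Y genes tested, 8 were called higher in CGG (all genes: 5.24%) and 0 lower, a count of 7 or 8 in each fit with 1 library left out. Their sum was 49537, 45406 and 46633 normalised counts in CGG, against 33267, 32438 and 35752 in GFP_TRA. The sum was 46619 to 50750 in CGG_siTRA, 44343 to 56148 in siTRA and 41940 to 44037 in CTL, so that the 3 GFP_TRA libraries were the lowest of the 15.

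Taken singly, the 12 chromosome Y genes had log2 differences from 0.04 (adjusted p = 0.942) to 0.80 (adjusted p = 0.000766), all above 0. The locus chrY:12701231-12860839 had 5145, 4445 and 4805 normalised counts in CGG, against 2992, 2802 and 3136 in GFP_TRA (log2 difference 0.69, adjusted p = 0.000142). The locus chrY:2841486-2932000, which held most of the reads, had 29856, 27176 and 27815 in CGG, against 20511, 20343 and 22157 in GFP_TRA (log2 difference 0.43, adjusted p = 0.0107). For 8 of the 12 tested genes the GFP_TRA libraries lay below the 12 others (all genes: 4.12%).

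On chromosome 3, 83 of 843 genes tested were higher in CGG (9.85%, all genes: 5.24%) and 17 lower (2.02%, all genes: 3.19%). The median log2 deviation of its better-read genes (mean of 100 or more, n = 679) from their mean over the libraries was -0.01 to 0.03 in the CGG libraries, against -0.09 to -0.06 in the GFP_TRA libraries. In the 9 libraries of the other groups it was -0.01 to 0.06, so that no library outside GFP_TRA was as low.

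The shift was not spread evenly along chromosome 3. Of 230 windows of 10 Mb with at least 20 such genes, 8 had all 3 GFP_TRA libraries below the 12 others, and 5 of these were among the 14 windows of chromosome 3. The window from 120 to 130 Mb had 13 of 60 genes called higher in CGG (all genes: 5.24%) and 0 lower (all genes: 3.19%). Its median log2 difference was 0.14. The windows from 40 to 50 Mb and from 50 to 60 Mb had 12 of 91 and 12 of 73 genes called higher and 0 lower in each, with medians of 0.11 and 0.16. Some other windows of the chromosome had medians near or below 0, such as -0.05 from 30 to 40 Mb and -0.11 from 170 to 180 Mb.

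The window with the lowest median was on chromosome 1, from 20 to 30 Mb (median log2 difference -0.15). It had 23 of 100 better-read genes called lower in CGG (all genes, at every level: 3.19%) and 1 higher (all genes, at every level: 5.24%). All 3 GFP_TRA libraries lay above the 12 others there, as in 2 further windows. The neighbouring window from 30 to 40 Mb had 11 of 92 genes called lower and 3 higher (median -0.10). Over all windows the medians ran from -0.15 to 0.17, and the median of all 11857 better-read genes was -0.02.

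**Figure D4:**
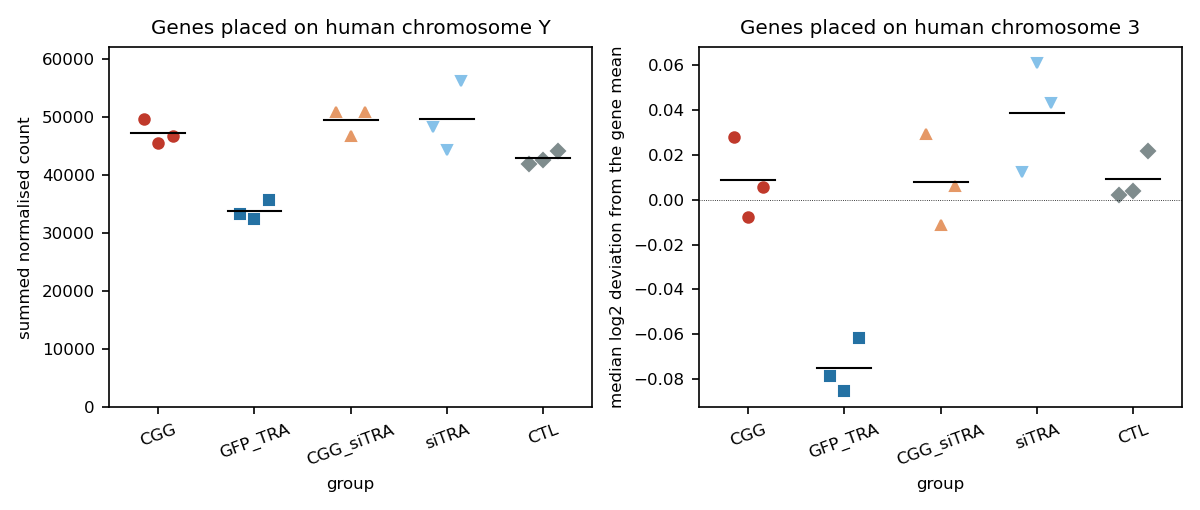
Left, summed normalised count of the 12 genes placed on human chromosome Y in each of the 15 libraries; right, the median log2 deviation of 679 better-read genes placed on human chromosome 3 from their mean over the libraries. Lines are group means, and the 3 GFP_TRA squares are the lowest points in both panels.

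Some called genes stood next to each other. Of 322 genes called at least 1.5-fold higher in CGG and 27 called at least 1.5-fold lower, 11 higher pairs and 1 lower pair were direct neighbours, out of 11905 pairs of neighbouring tested genes at most 100 kb apart. Whether this is more than the number of called genes would give was not tested. The pairs were looked up after their values were seen, and the lower pair was the mitochondrial one above. At chr7:134527592-134541408 the means were 12382 ± 297 in CGG and 5306 ± 552 in GFP_TRA (SD, n = 3 each), and at the next gene, chr7:134564788-134579875, they were 411 ± 34.6 in CGG and 161 ± 34.4 in GFP_TRA (SD, n = 3 each). At chrX:43654907-43746824 the means were 7777 ± 419 in CGG and 3467 ± 125 in GFP_TRA (SD, n = 3 each). Its neighbour on the other strand, chrX:43766611-43882435, had 138 ± 44.3 in CGG and 40.1 ± 3.17 in GFP_TRA (SD, n = 3 each). Near-identical gene copies can share reads in such neighbours, and reads of overlapping genes cannot be told apart here, because the use of strand in counting is not given in the sources used here.

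Outside TRA2A, bin use differed at few places. The 30 called bins lay in 12 genes or groups, and 24 had higher and 6 lower relative use in CGG. Of these 12, 11 were groups of overlapping genes, against 1687 of the 14969 genes or groups tested for level. In such a group, a change in bin use cannot be told apart from a change in the level of 1 member. All 30 bins were internal, in that none was the outermost bin at either end of its gene or group. The share of internal bins among all tested bins was not counted. In a group, an internal bin can still be the end of a member gene. An unadjusted p under 0.05 was reached by 4003 bins. A single gene held 1 of the called bins, and the rest were looked up after their values were seen, since the naming rule takes single genes only. Only 2 of the 30 were called in each of the 6 fits with 1 library left out, and limma's diffSplice called 1335 bins outside TRA2A. The number called outside TRA2A was 15, 5 and 5 without CGG libraries a, b and c, and 6, 5 and 19 without GFP_TRA libraries a, b and c.

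The 2 bins that stayed were neighbours on chromosome 12, in a group of 2 overlapping genes. Bin chr12:98599635-98599857 had 219, 175 and 159 normalised counts in CGG, against 416, 995 and 665 in GFP_TRA (log2 difference in relative use -1.83, adjusted p = 5.89e-22). The groups did not overlap, although the GFP_TRA libraries differed more than 2-fold among themselves. It averaged 232 ± 24.1 in CGG_siTRA, 252 ± 41.2 in siTRA and 139 ± 42.7 in CTL (SD, n = 3 each). The next bin, chr12:98599858-98599883, had 101, 88.0 and 61.4 in CGG, against 167, 372 and 232 in GFP_TRA (log2 difference -1.56, adjusted p = 4.71e-09). The summed gene group itself differed by -0.12 (adjusted p = 0.234).

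The remaining lower bins were 4 adjoining ones at chr19:48619176-48619183, which reads cross together. Bin chr19:48619178-48619181 had 219, 237 and 191 normalised counts in CGG, against 387, 424 and 421 in GFP_TRA (log2 difference -0.84, adjusted p = 0.0108). The other groups averaged 249 to 259. All 4 bins lost their call in each of the 6 fits with 1 library left out.

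Among the higher bins, 10 belonged to a group of 7 overlapping genes on chromosome 16, between 29820478 and 29834066, with log2 differences of 0.62 to 0.87. Bin chr16:29830628-29830636 had 583, 731 and 656 normalised counts in CGG, against 363, 399 and 291 in GFP_TRA (adjusted p = 0.00715). Its means were 500 ± 77.0 in CGG_siTRA, 476 ± 76.3 in siTRA and 278 ± 35.4 in CTL (SD, n = 3 each), so that CGG was highest and CTL lowest. Its call was lost in 4 of the 6 fits, being kept only without CGG library a or GFP_TRA library b, and the other 9 bins of the group lost theirs in 4 to 6. Another 5 bins lay in a group of 7 overlapping genes on chromosome 20, between 2656695 and 2657080. Bin chr20:2656695-2656773 had 188, 164 and 191 in CGG, against 96.4, 88.7 and 139 in GFP_TRA (log2 difference 1.0, adjusted p = 0.000112), and it lost its call only without GFP_TRA library b among these fits.

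The single gene with a called bin lay on chromosome 20. Its bin chr20:19960700-19960811 had 118, 108 and 140 normalised counts in CGG, against 55.1, 60.3 and 51.5 in GFP_TRA (log2 difference 0.91, adjusted p = 0.0320). CTL had 126 ± 17.03 (SD, n = 3), and the whole gene differed by 0.21 (adjusted p = 0.0503). Its call was lost in each of the 6 fits with 1 library left out, where the adjusted p ran from 0.0810 to 1. Of the other higher bins, chr11:83157632-83158879 was the longest at 1248 bases and had 478, 457 and 533 in CGG, against 299, 265 and 322 in GFP_TRA (log2 difference 0.81, adjusted p = 0.00404). Its highest group was siTRA, at 699 ± 7.30 (SD, n = 3), and the call was lost without CGG library c or GFP_TRA library a or b.

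The largest rise in relative use outside TRA2A was at chr12:7070241-7070943, in a group of 3 overlapping genes. It had 25.5, 40.6 and 29.5 normalised counts in CGG, against 6.43, 12.9 and 11.6 in GFP_TRA (log2 difference 1.79, adjusted p = 0.00545), and CTL averaged 23.4 ± 2.27 (SD, n = 3). There GFP_TRA was the low group, and the call was lost without CGG library b or GFP_TRA library a or b. A pair of adjoining bins at chr22:43932878-43933087 differed by 1.25 and 1.41 on the log2 scale. The second of them, chr22:43933007-43933087, had 48.7, 67.7 and 68.6 in CGG, against 23.0, 21.5 and 25.2 in GFP_TRA (adjusted p = 0.00444). GFP_TRA lay with CTL, at 22.8 ± 2.23 (SD, n = 3), and the call was lost in 4 of the 6 fits, being kept only without CGG library a or GFP_TRA library c.

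**Figure D5:**
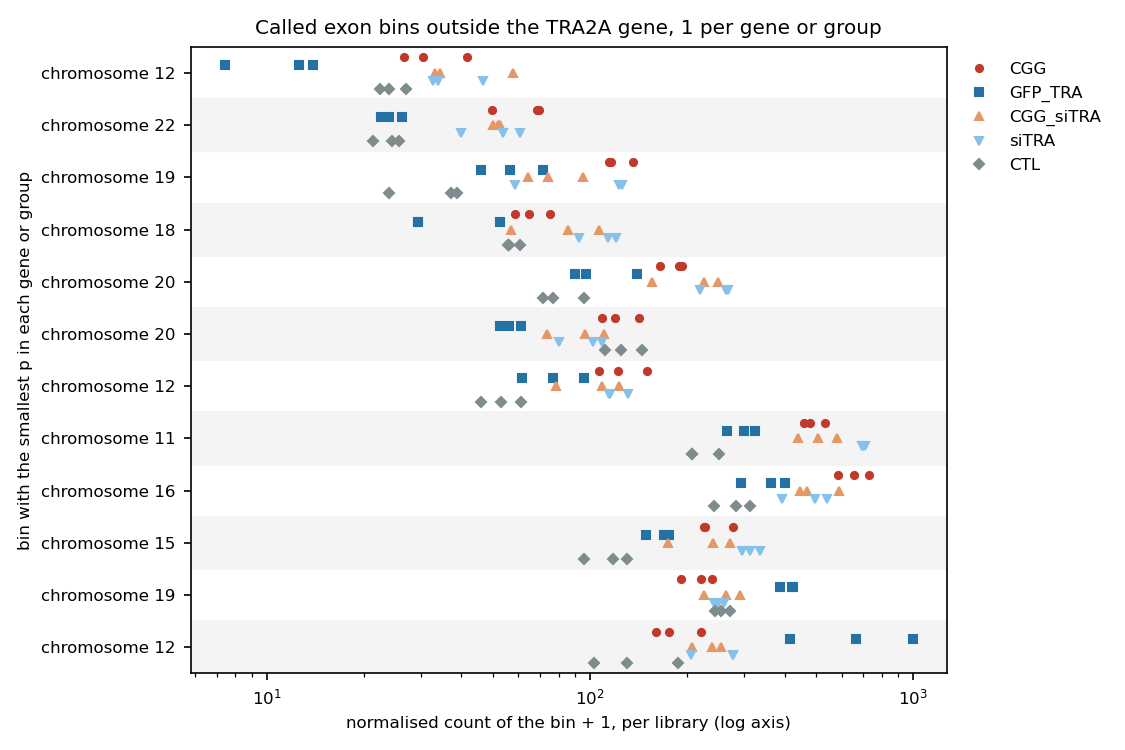
Normalised count plus 1 (log axis) in each of the 15 libraries of the called bin with the smallest p in each of the 12 genes or groups outside TRA2A, ordered by log2 difference in relative use from the highest in CGG at the top. In the lowest 2 rows the GFP_TRA squares lie above the CGG circles, and in the 10 rows above them they lie below.

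Splicing events were available only as the authors' own comparisons with CTL. In the authors' deposited tables, 216 of 6311 events had a p under 0.01 for CGG against CTL and 232 for GFP_TRA against CTL, and 363 had it in either. Both comparisons use the same CTL samples, so they are set side by side here without a test. The change in percent spliced in (delta PSI, as a fraction) was taken as treated minus CTL, since bin counts inside cassette exons then had the same sign in 17 of 17 events for CGG and 15 of 16 for GFP_TRA. Among the 363 events, the changes in the authors' deposited tables differed by a median of 0.0137 where both gave a value. A difference of 0.1 or more was found for 7 of these 363 in the authors' deposited tables.

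Of the 10 events with the largest difference, an alternative 3′ splice site at chr15:72250954-72251207 had a delta PSI of -0.149 for CGG (p = 0.00147) and -0.000239 for GFP_TRA (p = 0.866) in the authors' deposited tables. An alternative 5′ splice site at chr9:34402807-34405916 had -0.191 for CGG (p = 0.000485) and -0.0727 for GFP_TRA (p = 0.706) in the authors' deposited tables. For the other 8 the authors' deposited tables gave a larger change for GFP_TRA. Of the 363 events in the authors' deposited tables, 178 had the larger change for GFP_TRA and 162 for CGG. The rest had equal changes or lacked a value to compare. An alternative 3′ splice site at chr5:65452216-65452707 had 0.0147 for CGG (p = 0.915) and 0.163 for GFP_TRA (p = 0.000224) in the authors' deposited tables. An alternative first exon at chr4:70705262-70762519 had -0.0617 for CGG (p = 0.956) and -0.205 for GFP_TRA (p = 0.00446) in the authors' deposited tables. An alternative last exon at chr6:127280340-127286616 had -0.0949 for CGG (p = 0.0511) and -0.208 for GFP_TRA (p = 4.12e-07) in the authors' deposited tables.

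A cassette exon at chr14:39319291-39326864 had -0.0668 for CGG (p = 0.180) and -0.172 for GFP_TRA (p = 4.09e-06) in the authors' deposited tables. The bin inside it, chr14:39320928-39321056, took 3.23%, 3.47% and 3.32% of the counts of its gene in CGG, against 3.06%, 3.23% and 2.81% in GFP_TRA. The groups overlapped, and the bin was not called (log2 difference 0.14, adjusted p = 1). Only some of the 10 events had a tested bin inside them. Of 17 such bins, 0 were called by edgeR's diffSpliceDGE (all bins: 0.0166%). An unadjusted p under 0.05 was reached by 3 of the 17, against 4003 of all 265486 bins tested. The events were picked for their difference in the same libraries, so these bins are no independent check. The events on chr15, chr9 and chr5 above held no tested bin, nor did an event at chr4:139072003-139073454. These events were therefore not checked at the level of bins.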

How the data were processed

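Total RNA depleted of ribosomal RNA was sequenced, per the labels' protocols. The submitters' processing notes list cutadapt 1.14, STAR 2.5.2, DESeq2 and the human assembly GRCh38.p10, although the cells are monkey. The authors deposited raw counts per exon bin, and a normalised signal that is those counts over 1 factor per library. Event tables deposited by the authors give each splicing event a z score and p-value and its delta PSI, per the file headers. Dividing the normalised signal by its step recovered whole reads for 100% of values (within 0.1). Columns were assigned to groups only, and libraries are lettered a to c.

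The members and lists were chosen with earlier results of these data known. Bins were summed to genes, and a read over several bins counts in each. Genes with 10 or more normalised counts in 3 libraries were tested with edgeR 4.0.16 (R 4.3.3, quasi-likelihood, TMM, all 15 libraries in 1 fit of 5 group means), and bins with diffSpliceDGE, with Benjamini-Hochberg adjusted p under 0.05 over all features. Both were also run on simulated data. Bins were drawn independently there, so that run cannot show how the bin test behaves where bins share reads. Values printed are TMM-normalised counts. Alternatives were limma, DESeq2, other scalings and filters, the 6 libraries alone and each library left out. Gene lists fixed in the plan could not be matched, as 0 of 58243 IDs were paired with a name. By the rule for unnamed files 2 IDs each way are printed, and loci by position. The 10 largest differences each way among single called genes with a mean of 50 or more and no overlap were named, and up to 8 bins each way. Counts of 0 to 10 have wide counting error.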

Additional observations from a re-analysis of the deposited data

How the results depend on the processing

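With only the 6 libraries in the fit, 2363 genes were called (1330 higher in CGG, 1033 lower, 11 at least 2-fold lower) and 170 bins (151 outside TRA2A). With 1 library left out, genes called ran from 622 to 809, higher from 464 to 564, lower from 143 to 245, bins from 18 to 32 and bins outside TRA2A from 5 to 19. Taking the highest bin for the gene gave 472 genes (365 higher, 107 lower, 65 at least 2-fold higher) and 5 genes of chromosome Y. Genes lower numbered 803 with the authors' scaling and 747 with DESeq2, and 13 genes were at least 2-fold lower over all bins of the normalised table, a setting chosen after seeing the data. limma's diffSplice called 1361 bins, 1335 of them outside TRA2A, of which 18 were among the 44, and turned TRA2A bin E029 to -0.36. The cause of these shifts was not tested. Other settings (DESeq2's scaling, limma, no filter, a bin filter of 30) kept each count within 1.5 times, 1115 to 1245 genes and 44 bins. Over the 20 named genes, 265 alternative values stayed called and 35 lost the call, with 0 reversed. No paired analysis was possible because the count columns carry no replicate numbers of the sample titles. Depth limits genes of low count: 69 of the 135 genes at least 2-fold higher lay in the lowest part by level.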
